A study of Mus musculus with 8 samples.

Results

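The genes described here are 7 matrix metalloproteinases (MMPs), Mmp8, Mmp9, Mmp12, Mmp13, Mmp14, Mmp19 and Mmp27, and 3 tissue inhibitors of metalloproteinases, Timp1, Timp2 and Timp3. They were taken by gene symbol and are 10 of the 27 Mmp and Timp genes, and of the 21051 genes in all, that the expression tables list. RNA was sequenced from tumor-associated macrophages (TAMs) sorted as CD45+F4/80+ cells on day 14 from melanomas that grew after s.c. inoculation of B16 cells, a mouse melanoma line of C57BL/6 origin. The 4 TAM-WT libraries came from WT mice and the 4 TAM-KO libraries from littermates that lack both copies of Colec11, the gene of the soluble lectin collectin-11 (CL-11). All mice were C57BL/6 young adults, males unless the methods specify otherwise, and each library came from 1 mouse. The deletion was carried by the whole host rather than by macrophages alone, and not by the inoculated B16 cells. The comparison asks which members differ in TAMs when the host lacks CL-11.

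MMPs are zinc-dependent enzymes that cut collagens, elastin, fibronectin and other matrix proteins, and that release growth factors and cytokines from the cell surface. They are made as inactive precursors and are opened by other proteases, among them plasmin, furin and other MMPs. TIMPs bind the open active site and block it, so that the yield of active enzyme depends on activators and inhibitors as well as on the amount of enzyme made. Macrophages are a main source of several MMPs in tumors.

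TAM-KO held less Mmp27 and less Timp2 RNA than TAM-WT. Mmp27 was 2.50-fold lower and Timp2 1.64-fold lower, and these were the 2 of 10 members that passed an adjusted p of 0.05 in edgeR's quasi-likelihood test with p-values adjusted by Benjamini-Hochberg across 12412 genes. Across these genes, 9.81% passed in either direction, 5.24% as lower and 4.58% as higher in TAM-KO. Of the calls, 46.6% were thus higher in TAM-KO, against 69.2% with limma on log2(FPKM + 1). With a fold change of at least 2 required as well, 2.53% passed, and of the members Mmp27 alone. The most abundant MMP, Mmp12, was 3.35-fold lower and the collagenase Mmp8 was 2.34-fold lower, but both missed the threshold, with adjusted p of 0.062 and 0.060. No member was called higher in TAM-KO by edgeR, by DESeq2 or by limma. 0 members had an unadjusted p under 0.05 in that direction in edgeR, 0 in DESeq2 and 1 in limma. The fitted log2 fold change was below 0 for 8 members and above 0 for 2, with a median of -0.41 beside 0.0016 over all tested genes.

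The 8 libraries were close in depth, with 16225362 to 17280267 reads on genes in the 7 complete tables. The sample table of TAM-KO replicate 1 lacks 5311 genes, and 5 of the members are among these. For 4 of those, Mmp8, Mmp9, Mmp12 and Mmp13, that library's value was taken from the table of the whole series, which lists 3996 genes compared by the authors. It enters the levels given here and an alternative fit, but not the reported test. For these 5 members that test set 4 TAM-WT against 3 TAM-KO libraries. The same holds for other genes that the sample table lacks, among them Lyz2, Ly6c2, Mrc1, Fn1, Mmp10 and Mmp2, whose levels cover 4 TAM-KO libraries. Mmp14 has no value for TAM-KO replicate 1. All 10 members passed the filter on low counts, with at least 10 reads in each library that has a value. Levels are FPKM, reads scaled to exon length and to the mapped reads of the library, and can be compared between genes.

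Colec11 itself had 0 to 4 reads in TAM-WT and 1 read in each TAM-KO library, so these libraries could not check the genotype labels. The macrophage label was met by its markers. Adgre1, which encodes F4/80, lay between 186 and 239 FPKM in TAM-WT and between 182 and 200 FPKM in 3 TAM-KO libraries. Lyz2 and C1qa were the most abundant of 12 macrophage genes, of which 0 were called by edgeR, while 5 had an unadjusted p under 0.05. Of these 5, 3 were lower in TAM-KO, Lyz2 among them, and 2 were higher. Lyz2 had a log2 fold change of -0.70 (adjusted p = 0.055 by edgeR's quasi-likelihood test). Of the 12 genes, DESeq2 called 4 and limma 1. Genes of the melanoma cell were also abundant, led by Pmel and Dct. The summed level of 8 melanoma genes lay between 2004 and 4484 FPKM in TAM-WT and between 3904 and 5178 FPKM in TAM-KO. All 8 had a log2 fold change above 0. By edgeR 1 of them, Sox10, was called higher, and 7 were higher at an unadjusted p under 0.05. DESeq2 called 6 of them higher and limma 3. In bulk RNA, fewer cells of a type and less RNA per cell cannot be told apart.

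Mmp12 encodes macrophage elastase. In the 4 TAM-WT libraries Mmp12 stood at 359, 326, 557 and 787 FPKM, and in the 4 TAM-KO libraries at 224, 84.1, 118 and 279 FPKM. Every TAM-KO library was below every TAM-WT library, and replicate 4 was the highest of each group. Mmp12 was the most abundant member in both groups, with means of 507 ± 212 FPKM (SD, n = 4) and 176 ± 90.6 FPKM (SD, n = 4), and its spread within a group was wide. The log2 fold change over 4 and 3 libraries was -1.75 (SE 0.50, 95% confidence interval -2.90 to -0.59), and the adjusted p of edgeR's quasi-likelihood test was 0.062. Mmp12 passed in 7 of 17 fits. Among these were DESeq2 (adjusted p = 0.031), limma on log2(FPKM + 1) (adjusted p = 0.041) and edgeR with TAM-KO replicate 1 added (adjusted p = 0.049). Of the 8 edgeR fits that each lack a library, Mmp12 passed in 2. These were without TAM-WT replicate 2 (adjusted p = 0.034) and without TAM-KO replicate 4 (adjusted p = 0.029). In the others the adjusted p reached 0.19.

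Mmp8 and Mmp13 encode collagenases, which make the first cut in fibrillar collagen. Mmp8, best known from neutrophil granules, stood at 17.6, 25.9, 45.7 and 32.5 FPKM in TAM-WT and at 17.9, 10.9, 13.9 and 17.6 FPKM in TAM-KO. The groups met only at TAM-WT replicate 1, at 17.55 FPKM, just below TAM-KO replicates 1 and 4, at 17.88 and 17.6 FPKM. The other 3 TAM-WT libraries were above all of TAM-KO. Mmp8 had a log2 fold change of -1.22 (SE 0.35) with an adjusted p of 0.060 in edgeR's quasi-likelihood test. Mmp8 passed in 5 of 17 fits. Among these were DESeq2 (adjusted p = 0.0040) and edgeR with TAM-KO replicate 1 added (adjusted p = 0.049). Of the 8 edgeR fits that each lack a library, Mmp8 passed in 2. These were without TAM-WT replicate 1 (adjusted p = 0.027) and without TAM-WT replicate 2 (adjusted p = 0.041). In the others the adjusted p reached 0.195.

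Mmp13 read 44.6, 41.8, 65.3 and 109 FPKM in TAM-WT and 38.0, 33.2, 47.4 and 59.8 FPKM in TAM-KO. The groups overlapped, and 1 library, TAM-WT replicate 4, lay far above the other 7. The log2 fold change of Mmp13 was -0.59 (95% confidence interval -1.45 to 0.27, adjusted p = 0.33 by edgeR's quasi-likelihood test), and without TAM-WT replicate 4 it was -0.21. The ratio of Mmp12 to Mmp13 within a library was 7.25 to 8.52 in TAM-WT and 2.50 to 5.89 in TAM-KO, so in the TAM-KO libraries the level of Mmp12 was lower relative to Mmp13. The ratio was not tested.

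Mmp27, a little-studied member of the family, gave the clearest difference. It stood at 15.9, 16.9, 16.7 and 18.7 FPKM in TAM-WT and at 8.38, 6.42, 6.29 and 8.17 FPKM in TAM-KO. The groups lay far apart, since the lowest TAM-WT library was well above the highest TAM-KO library, and the spread within each group was small. The means were 17.04 ± 1.201 FPKM and 7.32 ± 1.11 FPKM (SD, n = 4 each). On the log2 scale Mmp27 differed by -1.32 (SE 0.13, 95% confidence interval -1.61 to -1.04) and the adjusted p of edgeR's quasi-likelihood test was 0.0021. Mmp27 kept an adjusted p of at most 0.0134 when any 1 of the 8 libraries was left out.

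Mmp14, Mmp9 and Mmp19 did not pass the test. Mmp14 encodes a collagenase anchored in the cell membrane, which also activates the precursor of MMP-2. It stood at 80.2, 61.4, 72.8 and 94.1 FPKM in TAM-WT and at 103, 104 and 98.8 FPKM in 3 TAM-KO libraries. All of these TAM-KO libraries were above all of TAM-WT, and Mmp14 was the one member placed so. Its log2 fold change after TMM scaling was 0.29 (95% confidence interval -0.048 to 0.62), with an adjusted p of 0.22 in edgeR's quasi-likelihood test. FPKM values were placed somewhat higher in TAM-KO for genes in general. The median log2 difference of all tested genes was 0.089 on the log2(FPKM + 1) scale and 0.11 on the log2(FPKM + 0.1) scale. Groups that do not overlap in FPKM were found for 18.9% of tested genes, 13.5% with TAM-KO higher and 5.41% with TAM-KO lower. Among the members, 4 of 10 had such groups, Mmp14 with TAM-KO higher and Mmp12, Mmp27 and Timp2 with TAM-KO lower.

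Mmp9 encodes gelatinase B, an enzyme that macrophages and neutrophils can both make. It was the least abundant member in each group, at 0.36, 0.46, 0.58 and 0.38 FPKM in TAM-WT and 2.47, 0.48, 0.33 and 0.70 FPKM in TAM-KO. TAM-KO replicate 1 stood alone at the top, and the other 7 libraries were alike. In reads, Mmp9 had 125 in that library and 16 to 35 in the others. The fit without that library gave Mmp9 a log2 fold change of 0.073 (95% confidence interval -0.70 to 0.85, adjusted p = 0.91 by edgeR's quasi-likelihood test), while the fit with it gave 1.04.

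Most neutrophil genes that could be read were, like Mmp9, highest in TAM-KO replicate 1. Of 9 neutrophil genes that could be read in each of the 8 libraries, 8 were highest there, and their summed level was 207 FPKM beside 49.9 to 57.5 FPKM in the other TAM-KO libraries and 21.8 to 32.4 FPKM in TAM-WT. S100a9 had 361 reads in that library and 15 to 60 in the others. S100a8 was called higher in TAM-KO, with 73.5 FPKM in that library. In that library Ly6g was at 0 and Ltf at 0.16 FPKM, and the granule genes Ngp, Mpo and Camp had no value there. In the other 7 libraries Ngp and Mpo were at 0, and Ly6g, Ltf and Camp did not exceed 0.19 FPKM. For Csf3r the gap was small, with 33.6 FPKM in TAM-KO replicate 1 and 32.4 FPKM in TAM-KO replicate 2. Mmp8 and Mmp25, an Mmp gene that is no member, were not highest in TAM-KO replicate 1. There Mmp8 had 681 reads, beside 655 to 1706 in TAM-WT, and Mmp25 had 129, the fewest of the TAM-KO libraries. The part of neutrophil RNA in the value of Mmp9 was not tested.

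Mmp19, a secreted MMP that can cut basement membrane proteins, lay between 19.4 and 27.9 FPKM in TAM-WT and between 16.1 and 30.4 FPKM in TAM-KO. The TAM-KO range enclosed the TAM-WT range. Mmp19 had a log2 fold change of -0.22 (95% confidence interval -0.69 to 0.24, adjusted p = 0.50 by edgeR's quasi-likelihood test).

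Timp2 was the dominant inhibitor. TIMP-2 inhibits most MMPs and also forms the complex with MT1-MMP, the product of Mmp14, through which the precursor of MMP-2 is activated. Timp2 stood at 237, 235, 233 and 242 FPKM in TAM-WT and at 158, 141, 119 and 201 FPKM in TAM-KO. The TAM-WT libraries were nearly equal, every TAM-KO library was below them, and TAM-KO replicate 4 came closest. The means were 237 ± 4.08 FPKM and 155 ± 34.9 FPKM (SD, n = 4 each), a coefficient of variation of 1.72% against 22.6%. The log2 fold change was -0.72 (SE 0.15, 95% confidence interval -1.06 to -0.37) and the adjusted p of edgeR's quasi-likelihood test was 0.027. Leaving out TAM-WT replicate 3 raised the adjusted p to 0.079, and leaving out TAM-WT replicate 4 raised it to 0.060. It was 0.055, 0.098 and 0.079 when replicate 1, 2 or 3 of TAM-KO was left out. The log2 fold change stayed between -0.89 and -0.61 over the 8 fits that each lack a library.

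Timp1 and Timp3 were at lower levels and did not pass the test. Timp1, a secreted inhibitor that tissue injury and inflammation induce, lay between 10.02 and 14.6 FPKM in TAM-WT and between 10.7 and 14.0 FPKM in TAM-KO. For Timp1 the log2 fold change was -0.14 (95% confidence interval -0.53 to 0.25, adjusted p = 0.62 by edgeR's quasi-likelihood test). Timp3, whose product binds to the matrix and also inhibits ADAM17, lay between 2.23 and 4.38 FPKM in TAM-WT and between 2.57 and 3.77 FPKM in TAM-KO. For Timp3 the log2 fold change was -0.023 (95% confidence interval -0.46 to 0.41, adjusted p = 0.95 by edgeR's quasi-likelihood test), and its sign changed with the scaling, to 0.073 on the log2(FPKM + 1) scale. The groups of both genes overlapped.

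**Figure D1:**
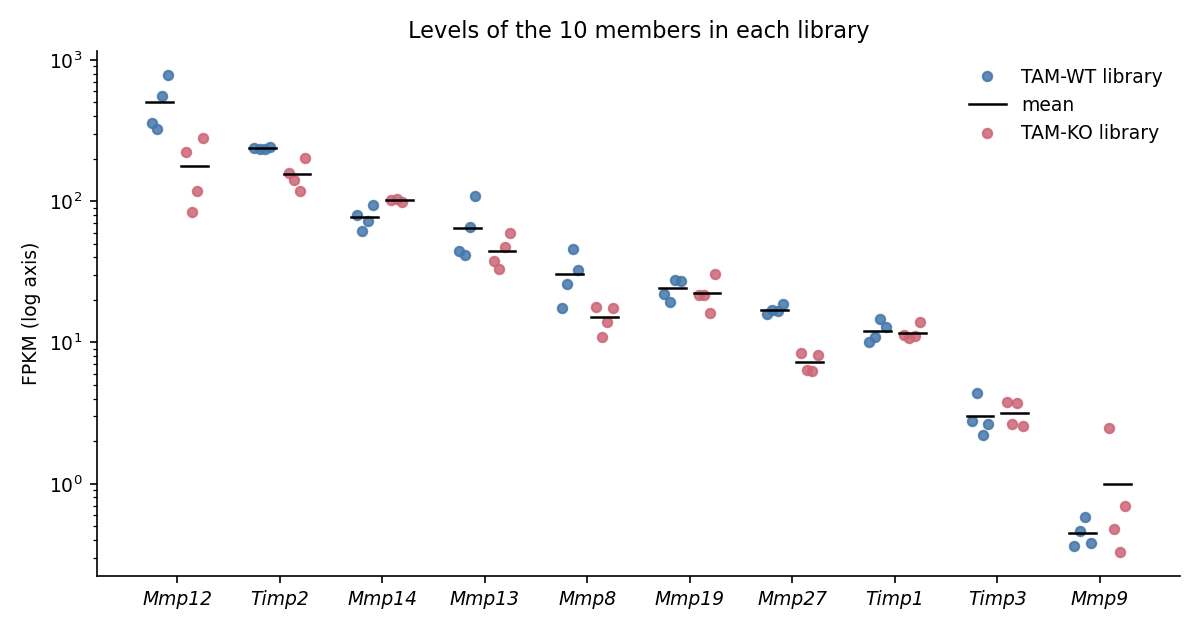
Level of each member in each library, in FPKM on a log axis, with members ordered by their TAM-WT mean. Points are libraries, blue for TAM-WT and red for TAM-KO, and bars are group means. TAM-KO lies wholly below TAM-WT for Mmp12, Timp2 and Mmp27 and wholly above it for Mmp14, and TAM-KO replicate 1 stands alone for Mmp9 at 2.47 FPKM.

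The order of the levels was nearly the same in both groups. In TAM-WT the order was Mmp12, Timp2, Mmp14, Mmp13, Mmp8, Mmp19, Mmp27, Timp1, Timp3 and Mmp9. Neighbours whose ranges over the 4 libraries overlapped were Mmp14 and Mmp13, Mmp13 and Mmp8, and Mmp8 and Mmp19. In TAM-KO Mmp19 came before Mmp8 and Timp1 before Mmp27. There the overlapping neighbours were Mmp12 and Timp2, Mmp19 and Mmp8, and Mmp8 and Timp1. Mmp12 thus lay above Timp2 without overlap in TAM-WT, and overlapped it in TAM-KO.

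**Figure D2:**
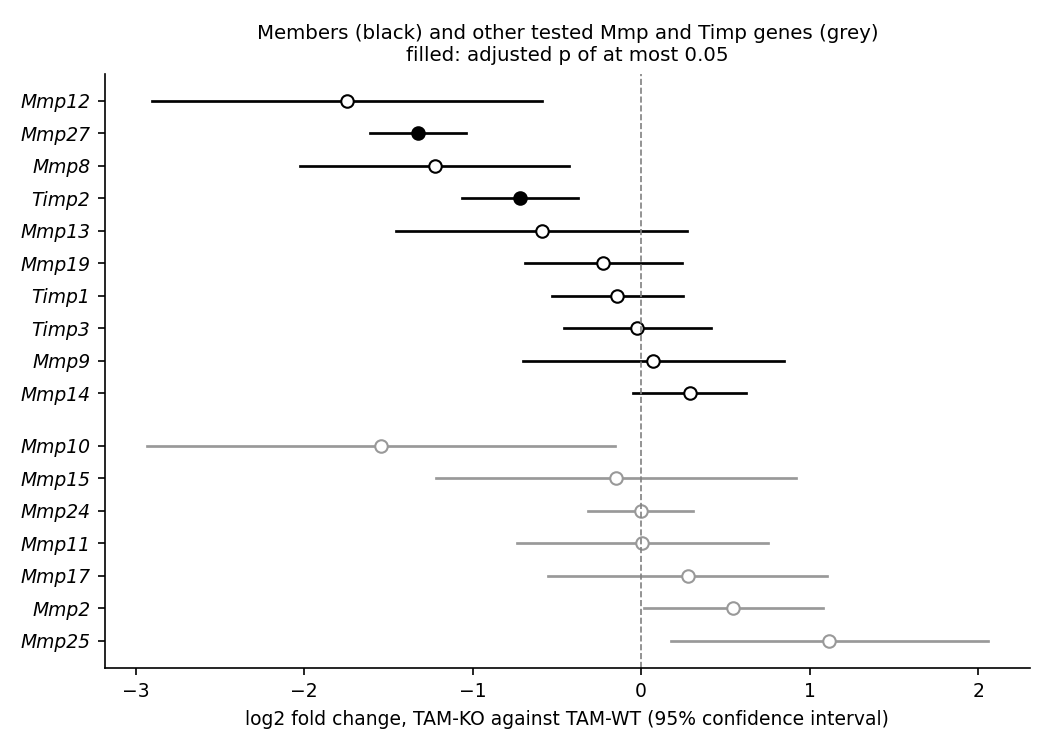
Fitted log2 fold change of TAM-KO against TAM-WT with its 95% confidence interval (horizontal axis) for the 10 members, in black, and the 7 other Mmp and Timp genes that were tested, in grey. Filled points passed an adjusted p of 0.05. Those are Mmp27 at -1.32 and Timp2 at -0.72, while Mmp12 at -1.75 and Mmp8 at -1.22 have wider intervals.

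Shares and ratios within a library show the make-up of the MMP pool beside its inhibitors. They are descriptions without a test and leave out TAM-KO replicate 1 where they need Mmp14. Mmp12 made up 66.3% to 73.6% of the summed FPKM of the 7 MMP members in TAM-WT, and 32.4%, 38.7% and 56.4% in TAM-KO replicates 2, 3 and 4. Mmp14 made up 8.81% to 14.9% in TAM-WT and 39.5%, 33.9% and 19.98% in those libraries. In TAM-KO replicate 2 the share of Mmp14 exceeded that of Mmp12, and in TAM-KO replicate 4 the shares were nearest to those of TAM-WT. The summed FPKM of the 7 MMP members was 721 ± 265 (SD, n = 4) in TAM-WT and 353 ± 124 (SD, n = 3) in TAM-KO, and the largest TAM-KO sum, 494, was just above the smallest TAM-WT sum, 492.

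The ratio of Mmp14 to Timp2 was 0.34, 0.26, 0.31 and 0.39 in TAM-WT and 0.73, 0.87 and 0.49 in TAM-KO replicates 2, 3 and 4. Every TAM-KO ratio was above every TAM-WT ratio, which follows from the FPKM groups of Mmp14 and Timp2 lying apart in opposite directions. The summed FPKM of the 3 TIMP members lay between 250 and 258 in TAM-WT and between 134 and 218 in TAM-KO, and Timp2 made up at least 88.9% of it in each library. The ratio of summed MMP to summed TIMP FPKM overlapped between the groups, at 1.96 to 4.14 in TAM-WT and 1.68 to 2.29 in TAM-KO.

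**Figure D3:**
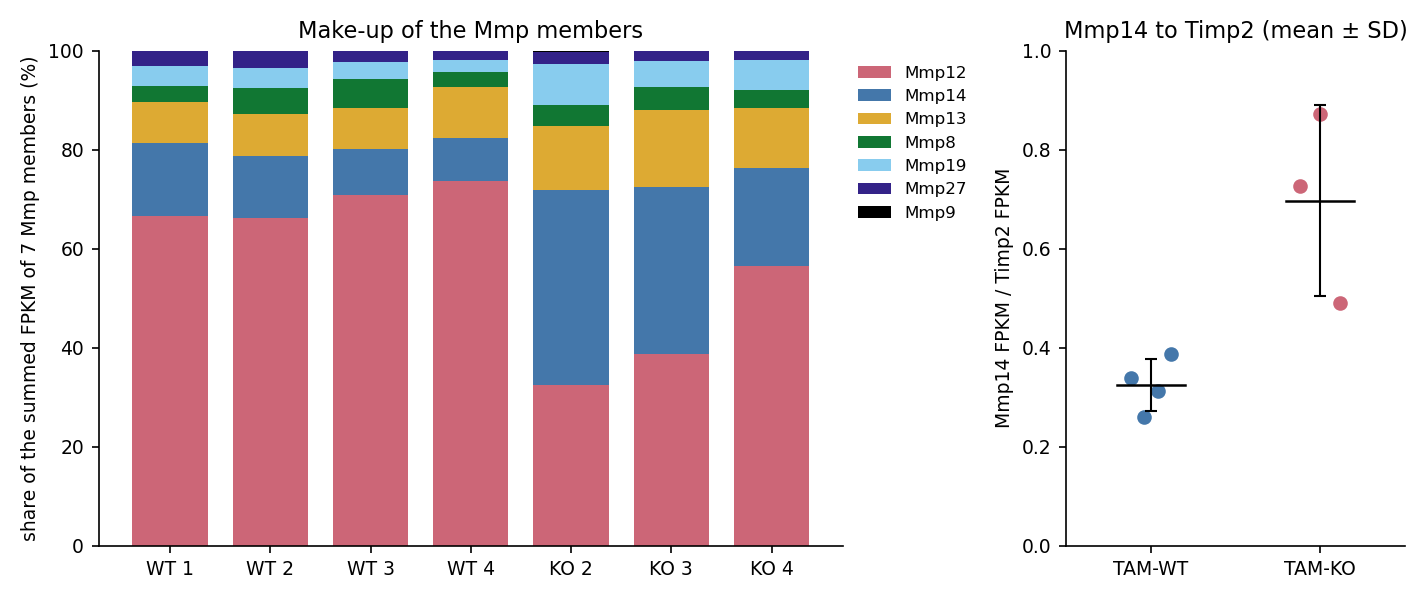
Left, the share of each MMP member in the summed FPKM of the 7 MMP members, in percent, for the 7 libraries that have all of them. Right, the ratio of Mmp14 to Timp2 FPKM in the same libraries, as points with the mean and SD of each group. The share of Mmp12 is 66.3% or more in TAM-WT and 56.4% or less in TAM-KO, and the ratio is 0.39 or less in TAM-WT and 0.49 or more in TAM-KO.

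Mmp13, Mmp12, Mmp8 and Mmp27 lie in 1 cluster of MMP genes on chromosome 9. In the RefSeq annotation of GRCm38.p6 the cluster runs from 7272514 to 7699585, over 427 kb, and its 10 protein-coding genes are all Mmp genes. From the Mmp13 end the order is Mmp13, Mmp12, Mmp1b, Mmp3, Mmp1a, Mmp10, Mmp8, Mmp27, Mmp20 and Mmp7. Mmp13 spans 7272514 to 7283333, Mmp12 7344397 to 7360461, Mmp8 7558429 to 7568486 and Mmp27 7571396 to 7581885, all on the plus strand. The other members are elsewhere, Mmp9 on chromosome 2, Mmp19 and Timp3 on chromosome 10, Timp2 on chromosome 11, Mmp14 on chromosome 14 and Timp1 on X.

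All 5 tested genes of the cluster had a log2 fold change below 0, and 1 of them, Mmp27, was called. The fifth, Mmp10, encodes stromelysin-2 and stood at 0.52, 1.65, 2.88 and 2.08 FPKM in TAM-WT and at 0.94, 0.46, 0.44 and 1.07 FPKM in TAM-KO. TAM-WT replicate 1 was as low as the TAM-KO libraries, and the other 3 were above them. The log2 fold change of Mmp10 over 4 and 3 libraries was -1.54 (95% confidence interval -2.93 to -0.16, adjusted p = 0.13 by edgeR's quasi-likelihood test). Mmp10 passed in 1 of the 8 edgeR fits that each lack a library, without TAM-WT replicate 1 (adjusted p = 0.042). In the others the adjusted p reached 0.33. Mmp1b, Mmp3 and Mmp7 did not exceed 0.17 FPKM in any library and were not tested, and Mmp1a and Mmp20 had no value.

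**Figure D4:**
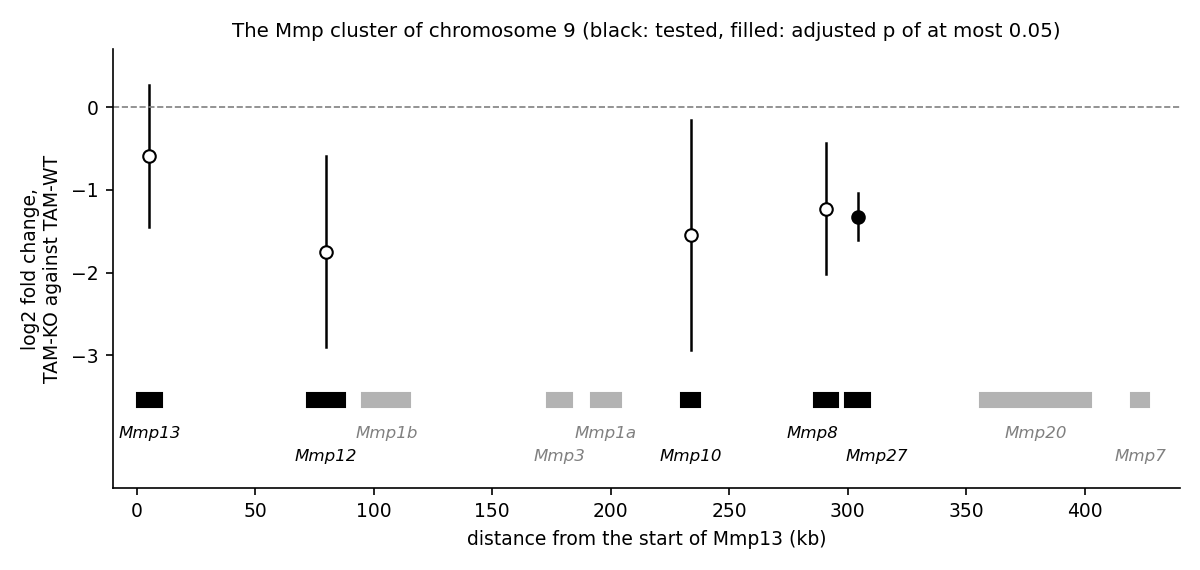
Fitted log2 fold change of TAM-KO against TAM-WT, with its 95% confidence interval, against the distance in kb from the start of Mmp13 along the chromosome 9 cluster. Bars at the bottom are genes, black where tested and grey where not, and the filled point passed an adjusted p of 0.05. All 5 tested genes lie below 0, and the interval of Mmp13 crosses it.

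The promoters of these 4 members are shown because the genes are neighbours whose fold changes had the same sign. Each line gives the 250 bases before a RefSeq transcript start in GRCm38.p6, plus strand, 5′ to 3′. Capitals mark matches to TGANTCA, the core of the AP-1 motif, and to TATAAA, the TATA box, searched on both strands. No match to one overlapped a match to the other.
Mmp13, chr9:7272264-7272513: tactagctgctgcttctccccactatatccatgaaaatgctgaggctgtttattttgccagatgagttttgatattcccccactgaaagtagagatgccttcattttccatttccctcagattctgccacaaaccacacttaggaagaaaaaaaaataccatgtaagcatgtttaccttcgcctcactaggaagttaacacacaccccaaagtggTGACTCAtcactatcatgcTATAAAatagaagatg
Mmp12, outer start, chr9:7344147-7344396: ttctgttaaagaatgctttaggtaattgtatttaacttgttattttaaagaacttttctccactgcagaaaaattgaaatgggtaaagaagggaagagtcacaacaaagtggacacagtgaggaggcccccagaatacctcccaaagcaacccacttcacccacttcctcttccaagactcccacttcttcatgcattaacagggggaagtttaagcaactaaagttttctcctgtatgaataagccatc
Mmp12, inner start, chr9:7347124-7347373: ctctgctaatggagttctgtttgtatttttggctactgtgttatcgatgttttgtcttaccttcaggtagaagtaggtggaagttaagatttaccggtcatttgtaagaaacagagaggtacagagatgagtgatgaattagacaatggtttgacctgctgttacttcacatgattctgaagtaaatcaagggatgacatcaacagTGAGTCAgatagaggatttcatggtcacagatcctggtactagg
Mmp8, chr9:7558179-7558428: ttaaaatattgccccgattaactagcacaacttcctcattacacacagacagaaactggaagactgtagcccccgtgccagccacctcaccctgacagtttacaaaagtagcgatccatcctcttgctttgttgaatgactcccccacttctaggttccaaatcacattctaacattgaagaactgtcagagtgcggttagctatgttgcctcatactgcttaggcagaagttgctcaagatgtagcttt
Mmp27, chr9:7571146-7571395: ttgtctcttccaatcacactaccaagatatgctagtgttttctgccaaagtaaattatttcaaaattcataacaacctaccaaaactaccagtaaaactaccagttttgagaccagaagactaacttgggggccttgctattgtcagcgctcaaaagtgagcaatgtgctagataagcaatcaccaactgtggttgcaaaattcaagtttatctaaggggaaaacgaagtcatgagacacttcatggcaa
The AP-1 letters occur in Mmp13 as TGACTCA, from 35 to 29 bases before the start, and at the inner of the 2 starts of Mmp12 as TGAGTCA, from 44 to 38 bases before it. The TATA letters occur in Mmp13 only, from 16 to 11 bases before the start. The windows of Mmp8, of Mmp27 and of the outer start of Mmp12 hold neither set of letters. Of 32851 RefSeq windows of this length, 6.75% hold the AP-1 letters and 12.4% the TATA letters. The 4 other members with a RefSeq window, Mmp14, Timp1, Timp2 and Timp3, hold neither. Motif matches were not tested against expression.

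Of the 17 other Mmp and Timp genes, 15 had a value, 7 were tested and 0 were called by edgeR, by DESeq2 or by limma. By an unadjusted p under 0.05, edgeR placed 2 of them higher in TAM-KO, Mmp25 and Mmp2, and 1 lower, Mmp10. Mmp25, an MMP anchored in the membrane of leukocytes, stood at 2.39, 0.34, 0.99 and 1 FPKM in TAM-WT and at 2.11, 2.90, 3.36 and 2.55 FPKM in TAM-KO. TAM-WT replicate 1 lay among the TAM-KO libraries, and the other 3 were below them. Its log2 fold change was 1.12 (SE 0.42) with an adjusted p of 0.11 in edgeR's quasi-likelihood test. Mmp25 passed in 1 of the 8 edgeR fits that each lack a library, without TAM-WT replicate 1 (adjusted p = 0.023). In the others the adjusted p reached 0.24. Mmp2 encodes gelatinase A, whose precursor is activated with Mmp14 and Timp2, and it lay between 0.48 and 0.92 FPKM in TAM-WT and between 0.93 and 1.31 FPKM in TAM-KO. For Mmp2 the log2 fold change over 4 and 3 libraries was 0.55 (SE 0.23) with an adjusted p of 0.15 in edgeR's quasi-likelihood test. Mmp24 did not exceed 1.71 FPKM, Mmp11 0.78 FPKM and Mmp17 0.19 FPKM, and their adjusted p lay between 0.65 and 0.99.

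Genes that act with MMPs and TIMPs were grouped in 5 lists, the other Mmp and Timp genes among them. Of their 53 tested genes, 4 were called higher and 7 lower in TAM-KO. Over all tested genes the shares were 4.58% higher and 5.24% lower, and the counts of each list stand beside these. In the list of activators and inhibitors, 3 of 7 tested genes fell in TAM-KO, 0 rose, and 4 were not called. The 3 that fell belong to the plasminogen system. Plau, the urokinase that turns plasminogen into plasmin, was 414 ± 33.3 FPKM in TAM-WT and 208 ± 58.6 FPKM in TAM-KO (SD, n = 4 each). Plaur, its receptor, was 106 ± 30.8 and 59.7 ± 5.66 FPKM (SD, n = 4 each), and 1 library, TAM-WT replicate 3, was far above the other 3 of its group. Serpinb2, an inhibitor of urokinase, was 3.94 ± 3.46 and 0.48 ± 0.41 FPKM (SD, n = 4 each). Plau, Plaur and Serpinb2 had log2 fold changes of -1.10, -0.94 and -3.14. In edgeR's quasi-likelihood test their adjusted p were 0.020, 0.027 and 0.032, and no TAM-KO library of any of them overlapped TAM-WT. Furin, a convertase that opens the precursor of MT1-MMP, was the most abundant that was not called, with a log2 fold change of -0.40. The median of the list was -0.40 beside 0.0016 over all tested genes.

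In the list of genes that dock or clear MMPs and TIMPs, 1 of 13 tested genes rose and 2 fell. Itgav, the integrin subunit alpha V, was 24.3 ± 1.73 FPKM in TAM-WT (SD, n = 4) and 34.4 ± 3.51 FPKM in TAM-KO (SD, n = 3), with a log2 fold change of 0.39. Mrc1, the mannose receptor CD206, which takes up collagen fragments, was 452 ± 14.7 and 233 ± 58.0 FPKM (SD, n = 4 each). Its log2 fold change was -1.13 over 4 TAM-WT and 3 TAM-KO libraries, and -1.07 with TAM-KO replicate 1 added. Cd63, a tetraspanin that binds TIMP-1, was 810 ± 39.5 FPKM in TAM-WT (SD, n = 4) and 688 ± 40.8 FPKM in TAM-KO (SD, n = 3), with a log2 fold change of -0.33. Their adjusted p were 0.023, 0.022 and 0.045 in edgeR's quasi-likelihood test. Bsg, which encodes the MMP inducer EMMPRIN, and Itgb2, an integrin subunit of leukocytes, were the most abundant that were not called, with log2 fold changes of 0.070 and -0.023.

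Among the related proteases ADAM and ADAMTS, 2 of 13 tested genes rose and 0 were called lower in edgeR, where 3 were lower at an unadjusted p under 0.05. DESeq2 called 1 lower and limma 0. Adamts4, an aggrecanase, was 2.65 ± 0.78 and 4.91 ± 0.69 FPKM, and Adamts14, a procollagen peptidase, was 0.13 ± 0.063 and 0.56 ± 0.090 FPKM (SD, n = 4 each). Counts of Adamts14 were low, 5 to 18 reads in TAM-WT, and the fit that required 10 counts in every sample left it out. Adamts4 had a log2 fold change of 0.79 and Adamts14 one of 1.95, and edgeR's quasi-likelihood test gave adjusted p of 0.025 and 0.013. Adam8 and Adam15, the most abundant that were not called, had log2 fold changes of -0.68 and -0.24.

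Among matrix genes and shed substrates, 1 of 13 tested genes rose and 2 fell. Fn1, which encodes fibronectin and is also in the list of monocyte genes, was 225 ± 91.8 and 89.1 ± 29.6 FPKM (SD, n = 4 each). Spp1, which encodes osteopontin, a protein that MMPs cut, was 1630 ± 661 and 558 ± 295 FPKM (SD, n = 4 each). Sparc, a matrix glycoprotein, was 26.2 ± 8.61 and 49.1 ± 4.27 FPKM (SD, n = 4 each). Fn1, Spp1 and Sparc differed by -1.63, -1.67 and 0.79 on the log2 scale, and edgeR's quasi-likelihood test gave adjusted p of 0.034, 0.039 and 0.025. The test of Fn1 used 3 TAM-KO libraries, and with TAM-KO replicate 1 added its log2 fold change was -1.47. Thbs1 and Tnf, the most abundant that were not called, had log2 fold changes of -1.07 and -1.34, and their adjusted p were 0.10 and 0.087 in edgeR. The median of the docking list was -0.023, that of the ADAM and ADAMTS list 0.093 and that of the matrix list -0.050.

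The calls in the 5 lists depended on single libraries. Of the 11 genes called, 0 were called without TAM-KO replicate 3, where 19 genes of the lists still had an unadjusted p under 0.05 in edgeR. Without TAM-KO replicate 2 Plau alone was called, and without TAM-WT replicate 3 Adamts14 and Plaur. Without TAM-WT replicate 4 there were 6 calls, and without TAM-WT replicate 2 there were 18.

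Markers of other cells also differed between the groups. Their counts stand beside the 4.58% of all tested genes that were called higher and the 5.24% called lower. Of 7 tested monocyte genes, 3 were called higher, Ly6c2 and Plac8 among them, 1 lower, Fn1, and 3 were not called. Of the dendritic cell genes Xcr1 was called higher, 1 of 8 tested, and of the fibroblast genes Thy1, 1 of 7 tested. The T and NK cell genes were called in 0 of 7 tested by edgeR, where 6 were higher at an unadjusted p under 0.05. DESeq2 called 1 of them and limma 5. The endothelial genes were called in 0 of 4 tested by edgeR, 1 at an unadjusted p under 0.05, with 1 call by DESeq2 and 0 by limma. The summed level of T and NK cell genes was 0.69 to 19.2 FPKM in TAM-WT, where replicate 1 held the highest value and the other 3 were below 1 FPKM, and 17.4 to 63.0 FPKM in TAM-KO. The summed fibroblast genes were 2.02 to 6.14 FPKM in TAM-WT and 8.53 to 18.8 FPKM in TAM-KO, and Thy1, which T cells also express, made this gap. Without Thy1 the sums were 1.47 to 3.35 and 0.83 to 2.29 FPKM. The endothelial genes summed to between 3.23 and 6.72 FPKM in TAM-WT and between 4.92 and 11.03 FPKM in TAM-KO. Over the 7 libraries that hold every gene, the summed macrophage genes were 14840 to 17300 and 12220 to 15010 FPKM. The part of these cells in the levels of Mmp27, Timp2 and the other members was not tested. TAM-WT replicate 2, with the highest melanoma sum of its group at 4484 FPKM, had 16.9 FPKM of Mmp27 and 235 FPKM of Timp2. This is 1 library, and whether the members go with the melanoma sum was not tested.

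The genes most like the 2 called members in pattern were sought among 10810 tested genes, by the root mean square difference of centred log2(FPKM + 1) over 7 libraries. For Mmp27 they were Qpct, a glutaminyl cyclase, Megf9 and Cercam, with differences of 0.090, 0.13 and 0.13. Qpct lay between 22.4 and 27.1 FPKM in TAM-WT and between 9.45 and 13.9 FPKM in TAM-KO. For Timp2 they were Rnase4, a secreted ribonuclease, Tns1, a focal adhesion protein, and Dhrs3, a retinal reductase, with differences of 0.064, 0.068 and 0.079. Rnase4 lay between 140 and 158 FPKM in TAM-WT and between 77.1 and 119 FPKM in TAM-KO. This likeness is a description over the same libraries that the test used.

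**Figure D5:**
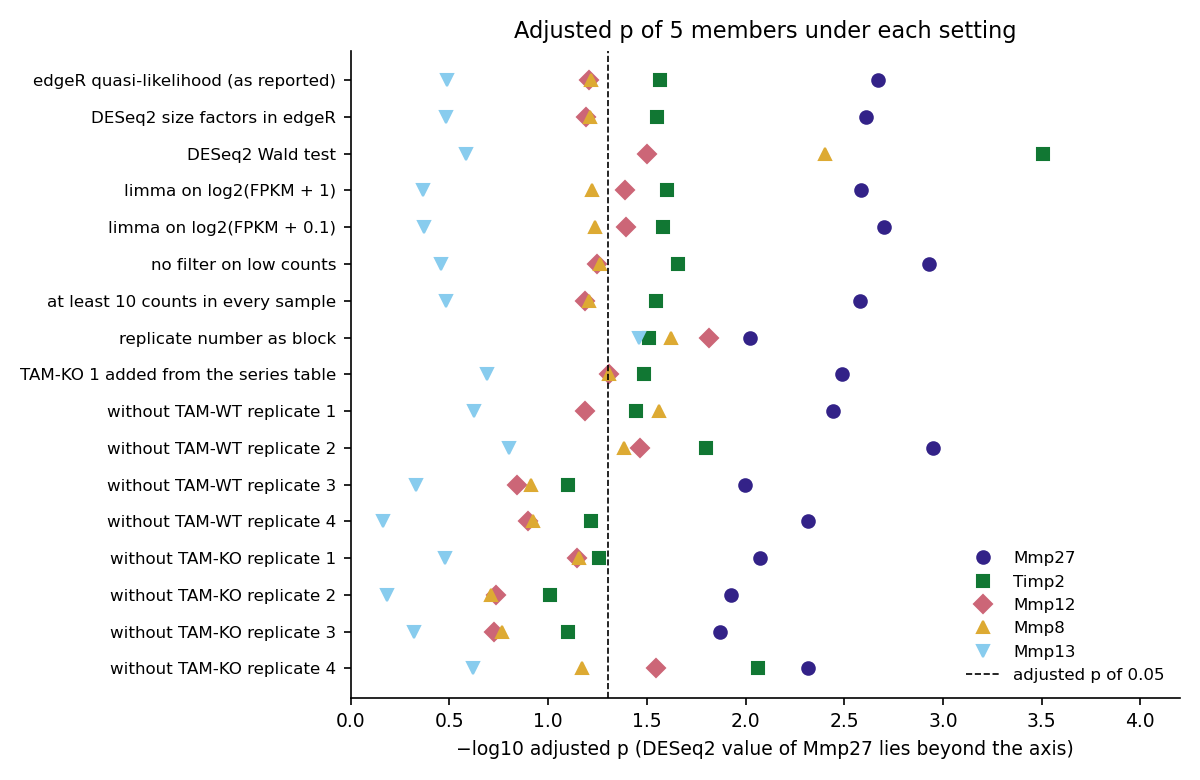
Adjusted p, as −log10, of 5 members under each of 17 fits, which are the reported edgeR test, other tools and settings, and fits that each lack 1 library. Points right of the dashed line passed an adjusted p of 0.05. Mmp27 passed in all 17 fits, Timp2 in 12, Mmp12 in 7, Mmp8 in 5 and Mmp13 in 1.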

How the data were processed

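RNA of CD45+F4/80+ TAMs, sorted by FACS at a purity the methods give as high, was sequenced on BGISEQ-500 for 4 TAM-WT and 4 TAM-KO mice. Groups and replicate numbers came from the deposited labels, which name no batch or date. The submitters' processing notes name GRCm38.p6, HISAT2 2.0.4, Bowtie2 2.2.5 and RSEM 1.2.12, and the annotation is not given in the sources used here. The authors deposited expected counts, RSEM's estimates of the reads on a gene, which may hold fractions and were not normalized. The FPKM values were computed by the authors relative to gene length and mapped reads, and deposited beside them. RSEM shares reads between similar genes, so reads common to close paralogs of the Mmp cluster can be split between them. Deposited TPM values were not used. The series table's log2 ratios, p-values and q-values are the authors' own comparison and were not used.

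In the table of TAM-KO replicate 1 a run of 5311 successive genes is missing. Left out were 1 garbled line and 629 values of genes that have no value in the other 7 libraries. The series table gives this library for 1188 genes. In 2808 genes that both hold, 0 counts differed by more than 0.011. The series table lists genes selected by the authors' comparison, so these values enter levels and an alternative fit, but not the reported test. A pass in that fit, as for Mmp8 and Mmp12, is not independent of that selection.

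Expected counts were rounded and tested with edgeR 4.0.16 in R 4.3.3 (TMM, filterByExpr, glmQLFit, glmQLFTest), group as the only term, on 8 libraries for 9396 genes and on 7 for 3016, with Benjamini-Hochberg adjustment over all 12412. Genes were called at an adjusted p of 0.05 or less. The scripts were tested on simulated data. Standard errors carry the spread between mice. Confidence intervals are not adjusted for the number of genes.

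The members and gene lists were chosen with earlier results of these data known. Named were all members, other Mmp and Timp genes of at least 1 CPM in either group, every called gene of the 5 related lists with the 2 most abundant not called, the most abundant cell markers, and the 3 genes of at least 5 CPM most like each called member. Xcr1, Ly6c2, Sox10, S100a9, the neutrophil granule genes and Adgre1 were named after their values were seen, and 2 genes of the lists are not reported here. Alternatives were DESeq2 1.42.0, DESeq2 size factors, limma 3.58.1 with a pseudocount of 1 or 0.1 on FPKM, testing without a filter, 10 counts in every sample, stricter thresholds, TAM-KO replicate 1 added from the series table, a replicate block and each library left out. Running the alternatives on the related genes was decided after seeing the data. Promoters are those of RefSeq for GRCm38.p6, found for 8 of 10 members.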

Additional observations from a re-analysis of the deposited data

Results flagged for a closer look

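In 75 groups of 4 libraries, the values of the named genes were searched for 1 library whose gap to its nearest neighbour took up nearly the whole range of the group. Chance flags about 1 in 20 groups, or 3.75 here, and 7 stood apart. Timp1 was 13.97 FPKM in TAM-KO replicate 4 and 10.7 to 11.2 FPKM in the other 3 TAM-KO libraries. In TAM-WT replicate 3, Plaur was 151.61 FPKM beside 86.4 to 92.3 FPKM in the rest of its group. Fn1 was 361.29 FPKM in the same library, and 161 to 191 FPKM in the rest. S100a8 was 73.46 FPKM in TAM-KO replicate 1, the library in which Mmp9 was also highest, and 9.13 to 15.8 FPKM in the other 3. TAM-WT replicate 1 stood apart in 3 genes of other cells. There Gzmb was 6.55 FPKM beside 0.23 to 0.47 FPKM, Cd3g 4.58 FPKM beside 0.15 to 0.23 FPKM, and Thy1 4.67 FPKM beside 0.47 to 1.06 FPKM in the rest of TAM-WT.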

How the results depend on the processing

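Mmp27 passed in all 17 fits, and the log2 fold changes of Mmp8, Mmp12, Mmp13, Mmp14, Mmp19, Mmp27, Timp1 and Timp2 kept their sign in each. The members called numbered 4 under DESeq2, 4 with TAM-KO replicate 1 added, 1 at an adjusted p of 0.01, 1 with a fold change of at least 2 required as well, and from 1 to 4 with a library left out. The calls over all genes numbered 2253 under DESeq2, 36 at an adjusted p of 0.01, and from 77 to 2755 with a library left out, lowest without TAM-KO replicate 2 or 3 and highest without TAM-WT replicate 2. The related genes called then ranged from 0 to 18, with 11 as reported. The sign of Timp3 turned to 0.073 and 0.099 under limma on log2(FPKM + 1) and log2(FPKM + 0.1), and ranged from -0.11 to 0.19 with a library left out. The sign of Mmp9 turned to -0.027 without TAM-WT replicate 1 and -0.28 without TAM-KO replicate 4, the lowest of its fits that lack a library, of which the highest gave 0.31. The cause of these changes was not tested.

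The labels do not say whether replicate numbers pair the libraries. The deviations of same-numbered libraries correlated at -0.33, 0.020, -0.23 and 0.26, and those of differently numbered libraries between -0.30 and 0.38. These correlations show no pairing but cannot exclude it. With the replicate block 5 members were called, Mmp8, Mmp12 and Mmp13 besides Mmp27 and Timp2, and 1080 genes in all, 802 of them among the 1218 reported; Mmp9 had a log2 fold change of -0.057. Precision was limited by 3 or 4 TAM-KO libraries and, for Mmp9, by counts of 16 to 35 in most libraries.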
